A study of Rattus norvegicus with 3 samples.

Results

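The transcripts described here are those of the mitochondrial respiratory chain and ATP synthase in wound cells of diabetic rats. Members were rows of the gene table whose symbol starts with Nduf followed by a, b, c, s or v, with Cox4 to Cox8, with Uqcr or with Atp5, or is Sdha to Sdhd, and rows of the subunits coded in mitochondrial DNA (Mt-nd, Mt-co, Mt-cyb, Mt-atp). This gave 111 of 32883 features. Of these, 87 rows code in the nucleus for subunits of complex I (38), II (4), III (9), IV (19) and V (17), 13 are coded in mitochondrial DNA, 8 are complex I assembly factors, 1 is a pseudogene, and Cox4i2 and Ndufa4l2 were kept apart as isoforms. Ndufa4 was counted in complex IV, where its protein sits. The rows carry 107 distinct symbols, and 4 of them (Cox6b1, Uqcrb, Ndufa10l1, Ndufv3) occur on 2 rows each, whose reads the counting may have split. No UMI was found in any barcode for Ndufa1, Cox8c, Cox7b2 and the pseudogene Cox6c-ps1.

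Male wild-type SD rats were injected with streptozotocin (65 mg/kg), a toxin of insulin-producing cells, at 7 to 9 weeks of age, and animals with blood glucose over 16.7 mM received full-thickness skin wounds of 15 mm diameter. All 3 groups were diabetic. Wounds stayed untreated, received plain hyaluronic acid hydrogel ("hydrogel"), or received CO-releasing hyaluronic acid hydrogel ("CO hydrogel", CO being carbon monoxide), and tissue was taken at 7 days from rats of 8 to 10 weeks. Each group is 1 single-cell 3' RNA library with no replicate, and the labels do not give the number of animals behind it, so no difference was tested and every interval covers counting error alone. The comparison of the gel libraries asks what the released CO adds to the gel, and the comparisons with untreated wounds carry the gel itself.

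The libraries held 12883, 15442 and 15376 barcodes (untreated, hydrogel, CO hydrogel), against about 8000 cells that the submitters expected for each, and 10820, 12700 and 13143 passed as cells, whose median depth was 2645.5, 5598.5 and 5809 UMIs. Between 364 and 600 barcodes were shared by a pair of libraries. Leaving out the shared barcodes moved no median over the members past its spread. Clusters were named by marker genes. Fibroblast-like cells numbered 1282, 1722 and 4980 in the same order, macrophage or monocyte-like cells 1879, 4388 and 3364, neutrophil-like cells 5719, 2841 and 462, endothelial-like cells 212, 561 and 1017, and mural-like cells, the contractile cells and pericytes of vessel walls, 607, 983 and 1148. T or NK-like cells numbered 120, 533 and 451, and keratinocyte-like cells 103, 137 and 257, a small part of a skin sample.

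The respiratory chain is a series of protein complexes in the inner mitochondrial membrane. Complexes I and II feed electrons from NADH and succinate to ubiquinone, complex III passes them to cytochrome c, complex IV (cytochrome c oxidase) hands them to oxygen, and complex V makes ATP from the proton gradient that results. Complex II is built from nuclear genes alone, and the other complexes mix nuclear-coded with mitochondrially coded subunits. CO is known to bind the reduced heme of complex IV in competition with oxygen, which is a property of the protein and not of the transcripts counted here.

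Nuclear genes of the chain are known targets of the transcription factors NRF1 and GABPA, and some isoforms, Ndufa4l2 among them, are known to be induced by low oxygen. RefSeq promoter windows (build GRCr8, 250 bases before to 50 after the gene start) were matched for 81 of the 107 symbols and for 73 of 83 nuclear-coded subunit symbols. Letters were searched on both strands. The GABPA core CCGGAAG lay in 19 of the 73 windows (26.0%), against 8.75% of 33469 promoters of the same length, and the NRF1 letters GCGCATGC in 9 of 73 (12.3%), against 2.47%. The hypoxia response cores ACGTG or GCGTG, short enough to be common, lay in 41 of 73 (56.2%) against 41.6%. The windows of Ndufa4l2 and Ndufa4 are shown because these isoforms differed between cell classes and libraries in the results that follow, and those of Ndufa11, Atp5me and Sdhb because they carry the NRF1 or GABPA letters. Capitals mark a hypoxia core on either strand in the first pair and NRF1 or GABPA letters in the others (NRF1 letters alone in Ndufa11). Only the 250 bases before the start are printed, 5′ to 3′ on the gene's strand. They are chr7:65241919-65242168 (plus strand) for Ndufa4l2, chr4:40975560-40975809 (minus) for Ndufa4, chr9:1637364-1637613 (plus) for Ndufa11, chr14:1464610-1464859 (plus) for Atp5me and chr5:158547684-158547933 (plus) for Sdhb.
Ndufa4l2: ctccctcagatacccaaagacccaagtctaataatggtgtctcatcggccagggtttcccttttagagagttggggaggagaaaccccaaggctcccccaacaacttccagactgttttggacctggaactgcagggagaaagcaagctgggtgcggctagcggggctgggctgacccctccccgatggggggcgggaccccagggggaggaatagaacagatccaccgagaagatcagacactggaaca
Ndufa4: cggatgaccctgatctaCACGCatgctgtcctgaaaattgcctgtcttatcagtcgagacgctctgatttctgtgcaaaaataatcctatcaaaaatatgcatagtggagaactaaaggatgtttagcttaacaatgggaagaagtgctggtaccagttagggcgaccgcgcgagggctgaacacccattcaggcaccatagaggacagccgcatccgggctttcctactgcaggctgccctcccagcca
Ndufa11: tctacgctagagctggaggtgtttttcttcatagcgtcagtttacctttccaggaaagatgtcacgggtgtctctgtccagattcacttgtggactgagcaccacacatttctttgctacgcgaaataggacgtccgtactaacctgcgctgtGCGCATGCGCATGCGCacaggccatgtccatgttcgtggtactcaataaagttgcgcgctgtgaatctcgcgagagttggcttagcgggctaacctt
Atp5me: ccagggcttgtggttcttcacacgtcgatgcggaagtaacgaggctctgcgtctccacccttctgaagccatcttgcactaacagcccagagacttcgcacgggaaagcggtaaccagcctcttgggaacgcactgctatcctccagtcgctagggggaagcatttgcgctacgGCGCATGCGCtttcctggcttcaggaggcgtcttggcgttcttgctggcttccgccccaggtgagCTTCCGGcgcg
Sdhb: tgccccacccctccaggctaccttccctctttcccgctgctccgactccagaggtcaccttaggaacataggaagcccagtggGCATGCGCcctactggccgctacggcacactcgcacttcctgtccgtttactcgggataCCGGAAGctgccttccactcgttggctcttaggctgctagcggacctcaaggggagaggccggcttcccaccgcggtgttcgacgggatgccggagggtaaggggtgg
The stretch before Ndufa4l2 held 0 hypoxia cores and that before Ndufa4 held 1. The run GCGCATGC overlaps its own reverse complement, and its 4 overlapping matches before Ndufa11 form 1 run. These are matches of letters and not measured sites. Cox4i2 had no entry in the promoter table.

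Levels are given as CPM, UMIs of the gene or group per 1000000 UMIs of the same cell class and library. The 3' kit tags 1 end of each transcript, so levels were not divided by gene length. Cell classes differed far more than libraries did. The nuclear-coded subunits together took 16470, 15573 and 15710 CPM of the fibroblast-like cells (untreated, hydrogel, CO hydrogel), 20744, 19278 and 19613 of the mural-like cells and 27625, 27410 and 26827 of the keratinocyte-like cells. Osteoclast-like cells, multinucleated bone-resorbing cells rich in mitochondria, stood highest with 43705 CPM (hydrogel, 62 cells) and 46190 CPM (CO hydrogel, 69 cells), which was 2.81 and 2.94 times the fibroblast-like level of the same library. Neutrophil-like cells, known for few mitochondria, stood lowest with 4169, 6935 and 8448 CPM. The untreated library stood highest in fibroblast-like, mural-like and keratinocyte-like cells and lowest in neutrophil-like cells.

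**Figure D1:**
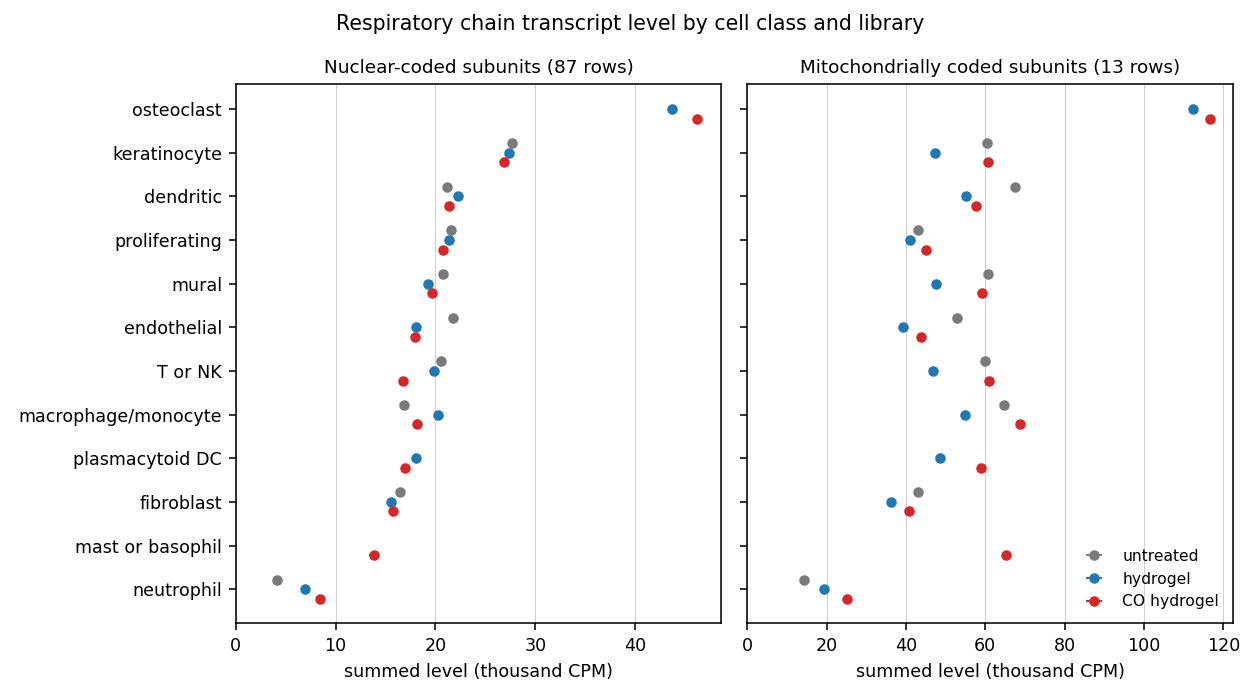
Summed level of the nuclear-coded and the mitochondrially coded subunits (CPM divided by 1000) in each cell class, 1 point per library with its exact 95% Poisson interval, which covers counting error only and is often narrower than the point. Neutrophil-like cells lie lowest and osteoclast-like cells highest in both panels.

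In fibroblast-like cells complex V (5169, 5002 and 4993 CPM), complex IV (4979, 4586 and 4697 CPM) and complex I (4360, 4110 and 4158 CPM) took most of the nuclear-coded UMIs. Complex III took 1721, 1648 and 1622 CPM, and complex II, with its 4 genes, 241, 227 and 241 CPM. Complex by complex, the libraries lay close to each other. The member with the most UMIs was Cox4i1, the common form of the regulatory subunit of complex IV, with 795, 701 and 753 CPM. Atp5f1e, the epsilon subunit of the ATP synthase, followed with 644, 695 and 661 CPM. Uqcrh, the hinge protein of complex III, stood at 377, 375 and 379 CPM, Ndufb9 of complex I at 307, 267 and 274 CPM, and Sdhb, the iron-sulfur subunit of complex II, at 80.4, 80.8 and 84.5 CPM. In osteoclast-like cells the same genes had 1723 and 1867 CPM (Cox4i1), 1112 and 1271 CPM (Uqcrh) and 363 and 360 CPM (Sdhb) in the hydrogel and CO hydrogel libraries. Complex II was the complex that stood furthest above its fibroblast-like level there, at 4.50 and 4.52 times.

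Between the CO hydrogel and the hydrogel, the nuclear-coded subunits of the structural cells had almost the same level when each class was taken whole. In fibroblast-like cells 77 of the 87 rows reached 100 UMIs over both libraries, and their median log2 ratio (CO hydrogel to hydrogel, where 1 is a doubling) was 0.01, with single members from -0.59 to 0.26, against a median of -0.01 over all 10632 measured genes. None of the 77 was at least 1.5-fold higher and 1 was at least 1.5-fold lower, while 5.5% of all measured genes passed that fold upward and 4.87% downward. In mural-like cells the median was 0.02 and 0 of 76 passed the fold either way (all genes 3.2% upward, 2.45% downward), and single members lay between -0.31 and 0.30. In keratinocyte-like cells the median was -0.02 with 0 of 75 past the fold (all genes 4.53% upward, 2.7% downward), and the comparisons with untreated were as level, with 0 of 74 past the fold in the CO hydrogel (all genes 6.56% and 5.11%) and 0 of 73 in the hydrogel (5.87% and 9.56%). In endothelial-like cells 1 of 76 passed upward and 0 downward (all genes 6.75% and 3.74%). Over 9 classes with enough cells, 17 of 655 values of the members passed the fold in either direction, against 11.6% of the values of all genes, and 62 of 77 members passed it in no class. Without neutrophil-like cells 9 of 587 did (all genes 11%), and 69 of 77 members passed it in no class. Genes with few UMIs pass a fold by counting error more often. The all-gene shares were not matched to the members for level, so they cannot show whether the members were steadier than genes of like level. With fibroblast-like clusters weighted to the same mix in each library, the fibroblast-like median was 0.19 (all genes 0.05). In all 3 clusters of the class the CO hydrogel value was the higher one. Cluster 9, which made up 54.5% of these hydrogel cells and 74.4% of these CO hydrogel cells, had 13396 and 14574 CPM, and cluster 11, at 42.7% and 19.9%, had 18237 and 18955 CPM. The widest gap was in cluster 10, with 12415 CPM from 48 hydrogel cells and 17704 CPM from 282 CO hydrogel cells.

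**Figure D2:**
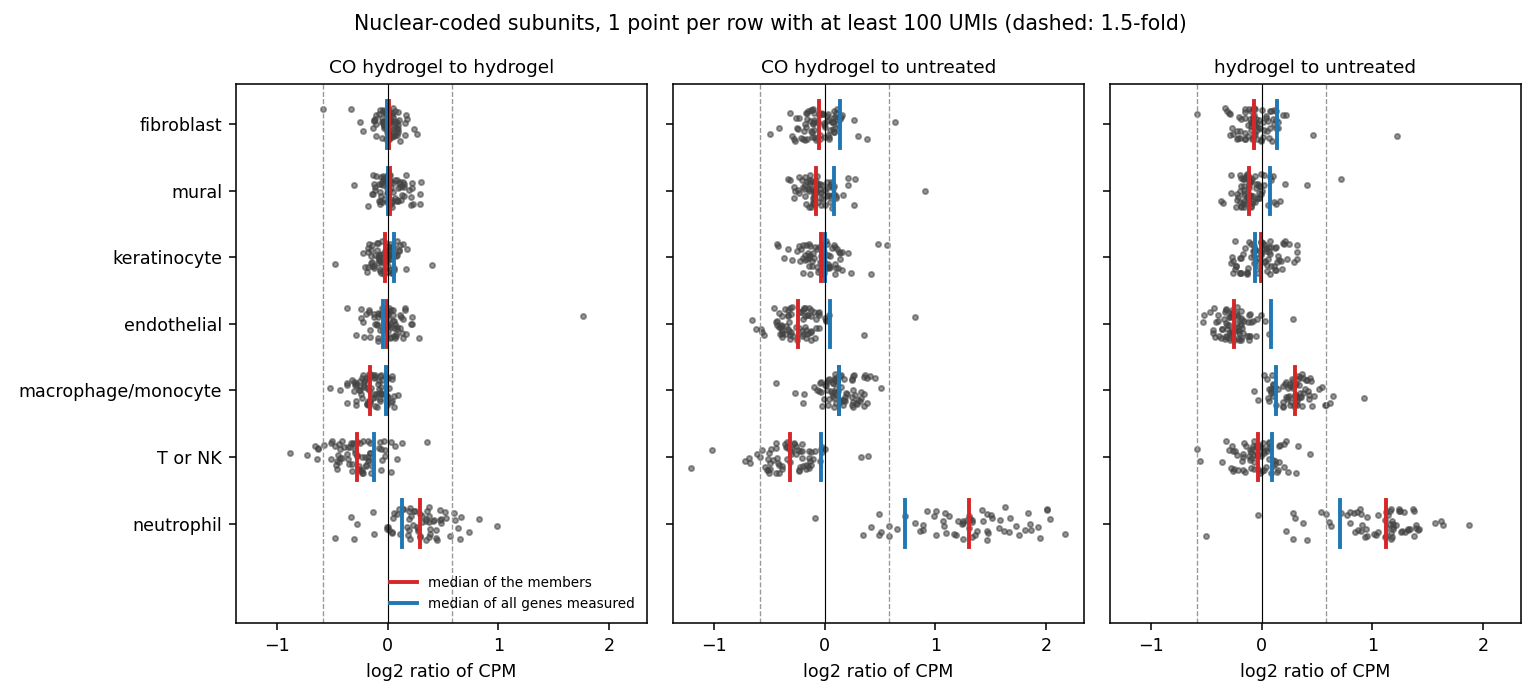
Log2 ratio of CPM for the 3 pairs of libraries (panels) in each cell class (rows), 1 point per nuclear-coded row with at least 100 UMIs over both libraries. Coloured lines give the median over members and over all measured genes, dashed lines mark 1.5-fold. Points crowd around 0 in most classes, and the neutrophil-like row lies to the right in both comparisons with the untreated library.

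Within the complexes, the extremes of the ratio of CO hydrogel to hydrogel in fibroblast-like cells were small. For complex I they were Ndufc1, a small accessory subunit (-0.33, 14.6 to 11.7 CPM), and Ndufa6, an accessory subunit of the matrix arm (0.26). Complex II ran from Sdhc, a membrane anchor (0.04, interval -0.05 to 0.13), to Sdha, the flavoprotein (0.16, 35.3 to 39.4 CPM). Complex III ran from Uqcrfs1, the Rieske iron-sulfur protein (-0.13), to Uqcrb (0.11). Complex V ran only from Atp5mc1, a gene of the c-ring (-0.11), to Atp5pf, coupling factor 6 (0.09). Complex IV had the widest span, from Cox6b2 (-0.59) to Cox7a2l (0.24, 267 to 316 CPM), a protein known to help complexes III and IV assemble into supercomplexes. The 8 complex I assembly factors ran from Ndufaf4 (-0.44) to Ndufaf2 (0.11), and none passed the fold in this class. In other classes 5 ratios of assembly factors between the gels did, all lower in the CO hydrogel. They were Ndufaf4 (-0.62) and Ndufaf6 (-0.62) in endothelial-like, Ndufaf4 (-0.76) and Ndufaf1 (-0.67) in macrophage or monocyte-like and Ndufaf8 (-0.69) in T or NK-like cells, each from 60 to 112 UMIs in the CO hydrogel library. Of all genes 3.74%, 6.93% and 12.6% passed downward in these classes, in that order, and 6.75%, 9.68% and 4.36% upward. Against untreated, Ndufaf4 passed upward in hydrogel fibroblast-like cells (0.60, 9.32 to 14.1 CPM), as 14% of all genes did. Sdhb, whose promoter window is printed above with its GABPA and NRF1 letters, had 80.8 CPM in hydrogel and 84.5 CPM in CO hydrogel fibroblast-like cells.

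Against untreated wounds, the subunits of fibroblast-like cells did not share the upward shift of the all-gene median. Their median was -0.05 in the CO hydrogel (all genes 0.14) and -0.07 in the hydrogel (all genes 0.14). Of 77 rows, 1 was higher and 0 lower past the fold in the CO hydrogel (all genes 15.4% and 5.46%), and 1 higher and 1 lower in the hydrogel (all genes 14% and 5.18%). The row that was higher in both was Cox6b2, and the lower one was Ndufa12, an accessory subunit of complex I, with 166 CPM in untreated and 111 in hydrogel cells (118 CPM in CO hydrogel cells). Ribosomal protein genes, listed for comparison, had medians of -0.04 in the CO hydrogel and -0.12 in the hydrogel over 15 genes. TCA cycle genes had 0.01 and 0.02 over 15 genes. Both lists also lay under the all-gene medians. TMM scaling shifts all genes of a class and pair alike, so it cannot change the distance of the subunits from other genes. It moved the subunit medians to -0.20 (CO hydrogel) and -0.23 (hydrogel), with all genes at -0.01 and -0.02. The mix of clusters differed, with cluster 10 holding 44.0% of the untreated, 2.79% of the hydrogel and 5.66% of the CO hydrogel cells. With the same mix the medians were 0.04 in the CO hydrogel (all genes 0.15) and -0.13 in the hydrogel (all genes 0.11). Clustering each library by itself gave 0.03 in both, above 0 but below the 0.16 of all genes in each. Dissociation stress genes moved in the same comparison, with 10 of 14 higher in the hydrogel (median 0.87) and 6 of 14 in the CO hydrogel (median 0.55), and their part in the result was not tested.

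In the vessel classes, the untreated library was the higher one. Endothelial-like cells had 21744 CPM of nuclear-coded subunits in untreated, 18032 in hydrogel and 17979 in CO hydrogel cells, from 212, 561 and 1017 cells. The median ratio to untreated was -0.25 for the hydrogel, with 72 of 75 rows below 0 where 39.6% of all genes were, and -0.24 for the CO hydrogel, with 70 of 76 below 0 against 45%. Few members were past 1.5-fold: 0 of 75 in the hydrogel (all genes 10% higher, 2.54% lower), and 1 higher and 2 lower of 76 in the CO hydrogel (14.5% and 4.08%). The lower ones were Cox7b, a small subunit of complex IV (-0.66, 272 CPM in untreated, 201 in hydrogel and 173 in CO hydrogel cells), and Ndufab1, the mitochondrial acyl carrier protein (-0.62). Ribosomal protein genes, listed for comparison, were also lower, with medians of -0.38 and -0.25 over 14 genes. Dissociation stress genes were higher past the fold in 3 of 14 (hydrogel, median 0.25) and 4 of 14 (CO hydrogel, median 0.40), and summed fibroblast markers were 1278, 986 and 5649 CPM (0 of 8 at 0). In cluster 12 alone, without the 162 CO hydrogel cells of cluster 26, the CO hydrogel level was 18102 CPM. Mural-like cells leaned the same way with smaller values, -0.11 for the hydrogel (63 of 76 rows below 0, all genes 38.8%) and -0.08 for the CO hydrogel (52 of 76, all genes 39.1%), or -0.21 and -0.18 with TMM factors. In each of them 1 row was past the fold and higher, Ndufa4, and 0 were lower (all genes 6.9% and 2.66% for the hydrogel, 8.07% and 2.39% for the CO hydrogel). Summed fibroblast markers in mural-like cells were 9020, 15994 and 20481 CPM (0 of 8 at 0). The part of these markers and stress genes in the results was not tested.

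Macrophage or monocyte-like cells had 16863, 20273 and 18168 CPM of nuclear-coded subunits, highest in the hydrogel. The median ratio of hydrogel to untreated was 0.30, with 74 of 76 rows above 0 where 63.7% of all genes were, and 3 of 76 rows were at least 1.5-fold higher and 0 lower (all genes 12.3% and 5.92%). These were Ndufc1 (0.93, 10.1 to 19.3 CPM), Ndufa5 (0.64) and Ndufs1, the largest subunit of complex I (0.62). The CO hydrogel lay between, with a median of -0.16 to the hydrogel (66 of 76 below 0, all genes 52.1%; 0 of 76 past the fold, all genes 9.68% higher and 6.93% lower) and of 0.13 to untreated, equal to that of all genes (0 of 76 past the fold, all genes 12.5% higher and 5.42% lower). The mix of clusters changed with the library. Cluster 4, with 22476, 23001 and 23600 CPM, made up 9.10%, 31.3% and 9.36% of the class, and cluster 8, with 17117, 13661 and 15669 CPM, made up 21.6%, 9.43% and 46.5%. With the clusters weighted to the same mix, the medians were -0.01 for hydrogel to untreated, 0.05 for CO hydrogel to hydrogel and 0.05 for CO hydrogel to untreated, so the first 2 lost their direction. TMM factors gave 0.14 for hydrogel to untreated and -0.03 for CO hydrogel to untreated. Summed neutrophil markers in this class were 3023, 983 and 584 CPM (0 of 9 at 0 in each library), and their part was not tested.

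The widest differences between libraries were in neutrophil-like cells. Their nuclear-coded subunits had 4169 CPM in untreated, 6935 in hydrogel and 8448 in CO hydrogel cells. The median ratio to untreated was 1.12 (hydrogel) and 1.30 (CO hydrogel), against 0.71 and 0.72 over all genes. Of 70 rows 60 were at least 1.5-fold higher in the hydrogel, and of 65 rows 57 were in the CO hydrogel, with 0 lower in either, but 57.2% and 56.1% of all measured genes also passed the fold upward (5.38% and 8.56% downward). Ndufa6 had 16.5, 37.6 and 74.4 CPM, from 46 UMIs in the CO hydrogel library. Atp5f1c, the gamma subunit that turns inside the ATP synthase, had 17.4, 51.4 and 71.2 CPM. Both genes rank untreated, hydrogel, CO hydrogel from low to high. Between the gels the median was 0.29 (all genes 0.13), with 8 of 68 rows higher and 0 lower past the fold (all genes 11.9% and 9.2%). The upward count was near the all-gene share. Of the 8, 7 were complex I genes, each from 16 to 46 UMIs in the CO hydrogel library, and complex I holds 38 of the 87 nuclear-coded rows. All 14 measured ribosomal protein genes were higher past the fold in both comparisons with untreated (medians 1.07 and 1.39), and the mix of clusters differed. Cluster 2 held 60.7% of the untreated cells, and cluster 0 held 61.2% of the hydrogel and 89.2% of the CO hydrogel cells. Within cluster 0 the level was 6704, 7702 and 8785 CPM, and within cluster 2 3502, 4926 and 5156 CPM, the last from 18 cells. Summed macrophage markers in this class were 5958, 9044 and 10408 CPM and summed fibroblast markers 1503, 1987 and 4537 CPM (none of the 11 and 8 at 0), in the order of the subunits, and their part in the result was not tested. With the same mix the medians were 0.48 (hydrogel to untreated), 0.51 (CO hydrogel to untreated) and 0.16 (CO hydrogel to hydrogel). TMM factors moved the all-gene medians of the 3 pairs to -0.11, -0.35 and -0.12 and those of the subunits to 0.30, 0.23 and 0.04.

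T or NK-like cells were the class with the lowest median in the ratio of CO hydrogel to hydrogel, -0.27 over 72 rows, of which 66 lay below 0 (all genes -0.12, 62.6% below 0). With TMM factors it was -0.15 with all genes at 0.00, and with the mean of per-cell CPM -0.16 (all genes -0.09). Past 1.5-fold, 6 of 72 rows were lower and 0 higher, and 12.6% of all genes passed downward and 4.36% upward. With TMM factors 2 rows were lower. Ndufab1 had 95.0, 76.0 and 41.3 CPM (CO hydrogel to hydrogel -0.88, interval -1.35 to -0.43, from 51 and 213 UMIs). Cox7b had 452, 475 and 301 CPM, and Ndufa4 had 638, 425 and 316 CPM. All 3 were lowest in the CO hydrogel library. Cox7a2l went against them with 423 CPM in hydrogel and 540 in CO hydrogel cells (0.35). The CO hydrogel cells of this class also held more UMIs of fibroblast markers (3519 CPM, against 2456 in hydrogel and 800 in untreated cells, 0 of 8 markers at 0 in each) and fewer UMIs per cell (median 2365 against 3917 in the hydrogel), and their part in the result was not tested. Against untreated cells, from 120 cells, the median was -0.31 in the CO hydrogel (0 higher and 7 lower of 68, all genes 9.73% and 8.7%) and -0.04 in the hydrogel (0 higher and 1 lower of 72, all genes 11.8% and 3.46%). Dendritic-like (median -0.04, 0 of 71 past the fold, all genes 3.69% higher and 8.34% lower) and plasmacytoid dendritic-like cells (-0.10, 0 higher and 1 lower of 64, all genes 2.63% and 2.93%) could be compared between the gels alone. Proliferating-like cells could be compared between CO hydrogel and untreated, with a median of -0.04 and 1 of 74 rows higher and 0 lower past the fold (all genes 11% and 6.83%), the higher one being Cox6b2 (0.80).

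The mitochondrially coded subunits behaved unlike the nuclear-coded ones, since the hydrogel library was the low one in nearly every class. Mitochondrial DNA codes for 7 subunits of complex I, cytochrome b of complex III (Mt-cyb), the 3 catalytic subunits of complex IV (Mt-co1 to Mt-co3) and 2 subunits of complex V (Mt-atp6, Mt-atp8). Their sum was 43128, 36277 and 40875 CPM in fibroblast-like cells, 60566, 47563 and 59256 CPM in mural-like cells, 64627, 54889 and 68734 CPM in macrophage or monocyte-like cells and 60393, 47392 and 60704 CPM in keratinocyte-like cells. The hydrogel was lowest in 6 of 7 classes with 100 cells in each library, at up to 22.5% under the mean of the other libraries, and in 12 of 14 clusters with 50 cells in each library. One exception was the unnamed cluster 13, with 66188, 61593 and 57587 CPM. The nuclear-coded sum was lowest in the hydrogel in 2 of 7 classes and 7 of 14 clusters. Among the classes neutrophil-like cells were the exception, with 14405, 19458 and 25200 CPM. The cell filter drew on the same UMIs, since cells with over 20% of mitochondrial UMIs were left out, 3.90%, 6.59% and 2.38% of the barcodes, which bounds these values. Without that limit only the ratio of CO hydrogel to untreated in macrophage or monocyte-like cells moved past the spread (0.14 to 0.06).

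Single mitochondrial genes did not move together. In the same 7 classes the hydrogel was lowest for Mt-co1 in 7 and for Mt-atp6, Mt-co2, Mt-co3, Mt-cyb, Mt-nd1, Mt-nd2 and Mt-nd3 in 6, and highest for Mt-atp8 in 7 and for Mt-nd4l in 6. In fibroblast-like cells Mt-co2, the copper subunit that takes electrons from cytochrome c, had 10642, 9073 and 10129 CPM. Mt-atp6, the proton channel of complex V, had 6511, 4821 and 6034 CPM, and Mt-nd2 of complex I had 2297, 1758 and 2247 CPM. The hydrogel value was the low one in all 3. Mt-atp8 had 184, 258 and 236 CPM, Mt-nd4l 108, 157 and 124 CPM and Mt-nd6 58.7, 87.5 and 74.4 CPM, with the hydrogel value highest. On the log2 scale Mt-atp6 was -0.43 and Mt-nd2 -0.39 in hydrogel to untreated, and Mt-atp8 was 0.49, Mt-nd4l 0.53 and Mt-nd6 0.58. In rat mitochondrial DNA Mt-atp8 overlaps Mt-atp6 and Mt-nd4l overlaps Mt-nd4 on shared messages, so the counting may have split reads within these pairs. Mt-nd6 lies on the other strand, so that limit does not extend to it. The part of such splitting in the order of the libraries was not tested. In macrophage or monocyte-like cells Mt-nd2 had the widest ratio of CO hydrogel to hydrogel of the group (0.58, 3318 to 4973 CPM), as it did in mural-like cells (0.52, 2821 to 4037 CPM), and in T or NK-like cells it passed the fold (0.62).

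**Figure D3:**
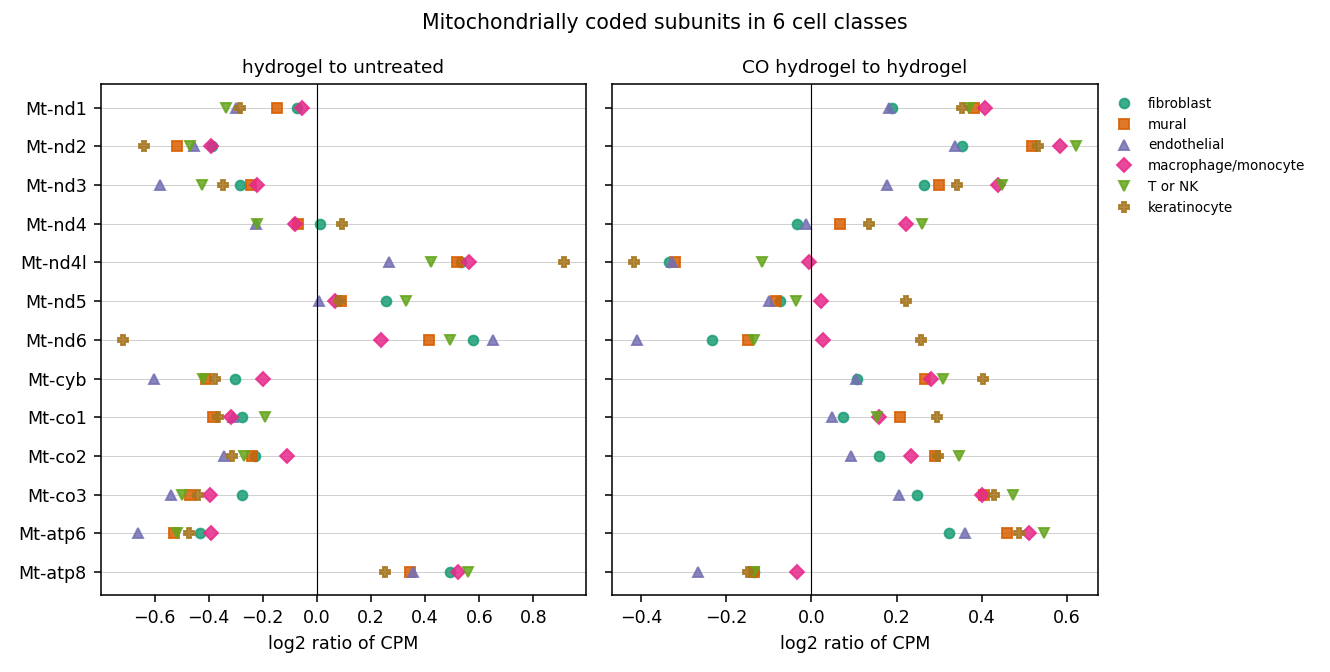
Log2 ratio of CPM of each mitochondrially coded subunit (rows) for hydrogel to untreated and CO hydrogel to hydrogel (panels), with 1 symbol per cell class in 6 classes. In hydrogel to untreated Mt-atp8 and Mt-nd4l lie right of 0 while Mt-atp6, Mt-co1 and Mt-nd2 lie left of it.

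The isoforms of complex IV subunits separated cell classes. Cox4i2 takes the place of Cox4i1 in tissues such as lung and is known as an oxygen-responsive form. It was highest in mural-like cells, with 981 CPM in untreated, 889 in hydrogel and 746 in CO hydrogel cells, or 46.1%, 47.5% and 42.4% of the summed UMIs of Cox4i1 and Cox4i2, and it was among the leading genes of mural-like cluster 3 beside Rgs5. Of mural-like cells 89.5%, 79.1% and 72.5% had a Cox4i2 UMI, and 51.3%, 47.9% and 40.6% did after every cell was thinned to 1000 UMIs. The order by library was the same in all these measures except the share of the pair, which was highest in the hydrogel. In cluster 3 alone Cox4i2 had 996, 945 and 815 CPM. Rgs5 had 1147, 1073 and 877 CPM there, and summed fibroblast markers 9167, 17328 and 22658 CPM. Cluster 22, with 269, 281 and 224 CPM of Cox4i2, made up 1.98%, 8.44% and 9.41% of the class. The part of these markers and of the cluster mix in the order was not tested. Fibroblast-like cells had 8.27, 6.47 and 4.97 CPM, and neutrophil-like cells, which should lack the gene, 4.97, 7.94 and 9.71 CPM. Proliferating-like cells had 187, 447 and 166 CPM, nearly all of it in cluster 24 (818, 812 and 1071 CPM). That cluster made up 29.6%, 59.2% and 20.7% of the class.

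Ndufa4l2, the hypoxia-inducible paralog of Ndufa4, had the same home. Mural-like cells had 524, 497 and 430 CPM of it (529, 518 and 454 CPM in cluster 3 alone), and it made up 85.4%, 77.1% and 71.9% of the pair with Ndufa4. Its log2 ratio was -0.08 for hydrogel to untreated, -0.28 for CO hydrogel to untreated and -0.21 between the gels, where Ndufa4 had 0.19. Ndufa4 had 89.7, 147 and 169 CPM in these cells (557, 1170 and 1154 UMIs), lowest in the untreated library, with log2 ratios to untreated of 0.72 in the hydrogel (interval 0.57 to 0.86) and 0.91 in the CO hydrogel (0.76 to 1.06), and it was the only nuclear-coded subunit past the fold in this class in either comparison. Fibroblast-like cells had 429, 454 and 439 CPM of Ndufa4, and the summed fibroblast markers of mural-like cells, given above, have the same order as Ndufa4 in these cells. Their part in the result was not tested. Ndufa4l2 had 1.63, 1.59 and 2.25 CPM in macrophage or monocyte-like cells and 166, 307 and 92.6 CPM in proliferating-like cells. Within proliferating-like cluster 24 it had 560, 554 and 598 CPM, and that cluster made up 29.6%, 59.2% and 20.7% of the class. In cluster 16 it had 59.9, 7.65 and 7.81 CPM, from 190, 5 and 13 UMIs, highest in the untreated library. In endothelial-like cells Ndufa4 had 727, 595 and 490 CPM, far above its paralog.

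In fibroblast-like cells Ndufa4l2 was highest in untreated wounds. It had 32.7 CPM in untreated, 5.14 in hydrogel and 4.37 in CO hydrogel cells (715, 120 and 204 UMIs), which is a log2 ratio to untreated of -2.67 (interval -2.96 to -2.39) in the hydrogel and -2.90 (-3.13 to -2.67) in the CO hydrogel. Between the gels the ratio was -0.23. The share of cells with a Ndufa4l2 UMI was 18.5%, 3.95% and 2.99% at median depths of 16454, 13494 and 9166 UMIs, and 2.87%, 0.417% and 0.619% after thinning to 1000 UMIs. For comparison with cells that should lack the gene, neutrophil-like cells had 4.13, 4.35 and 4.85 CPM and a UMI in 0.839%, 0.810% and 0.649% of cells at median depths of 1952, 1803 and 1309 UMIs, or 0.436%, 0.477% and 0.269% after thinning. Macrophage or monocyte-like cells, with the CPM given above, had a UMI in 1.12%, 1.25% and 1.19% of cells at median depths of 6434, 7162.5 and 4740.5 UMIs, or 0.338%, 0.207% and 0.218% after thinning. In CPM, the untreated fibroblast-like value lay above both classes, and the gel values lay near the neutrophil-like and above the macrophage or monocyte-like ones. The difference held in each cluster of the class. Ndufa4l2 had 14.5, 2.93 and 3.70 CPM in cluster 9, 32.3, 2.74 and 2.81 CPM in cluster 10 and 54.4, 7.80 and 7.05 CPM in cluster 11, with 2 UMIs behind the hydrogel value of cluster 10. Mural markers in fibroblast-like cells summed to 342, 789 and 411 CPM and were lowest in the untreated library.

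Some of the other hypoxia-induced genes were also lower in the gels in the same cells. Of 12 listed genes 11 were measured. In the hydrogel 4 were at least 1.5-fold lower than in untreated fibroblast-like cells and 1 higher (median -0.44), and in the CO hydrogel 6 were lower and 0 higher (median -0.61), against the shares of all genes given above. Bnip3, a mitophagy receptor, had 110 CPM in untreated, 37.0 in hydrogel and 41.9 in CO hydrogel cells. Higd1a, a protein that binds complex IV, had 351, 146 and 157 CPM, and Ldha, which makes lactate from pyruvate, 1031, 604 and 493 CPM. All 3 were highest in the untreated library, like Ndufa4l2. Pfkfb3, an activator of glycolysis, went the other way with 18.4, 29.7 and 25.8 CPM. Between the gels 1 of 11 was lower, the glucose transporter Slc2a1 with 69.4 and 36.0 CPM. In keratinocyte-like cells Ndufa4l2 was also highest in the untreated library, with 144, 53.3 and 76.2 CPM (log2 ratios to untreated of -1.43 for hydrogel and -0.92 for CO hydrogel), and 5 of 7 listed hypoxia genes were lower in the hydrogel and 4 of 7 in the CO hydrogel (all genes 9.56% and 5.11%), but the thinned shares of cells with a Ndufa4l2 UMI were alike at 6.98%, 6.72% and 7.44%, from 103 untreated cells. In CO hydrogel to untreated, 6 of 10 listed genes were lower in macrophage or monocyte-like cells (all genes 5.42%), where Ndufa4l2 had 1.63 and 2.25 CPM in untreated and CO hydrogel cells. Proliferating-like cells had 6 of 8 lower in that pair (all genes 6.83%), and 0 were higher in either class. Between the gels, macrophage or monocyte-like cells had 6 of 11 lower and 1 higher (median -0.79, all genes 6.93% and 9.68%). In hydrogel to untreated they had 2 lower and 2 higher (median -0.15, all genes 5.92% and 12.3%). In T or NK-like cells 3 of 5 were higher and 0 lower in hydrogel to untreated (all genes 11.8% and 3.46%). Between the gels 0 of 5 were higher and 3 lower there (median -0.75, all genes 4.36% and 12.6%).

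**Figure D4:**
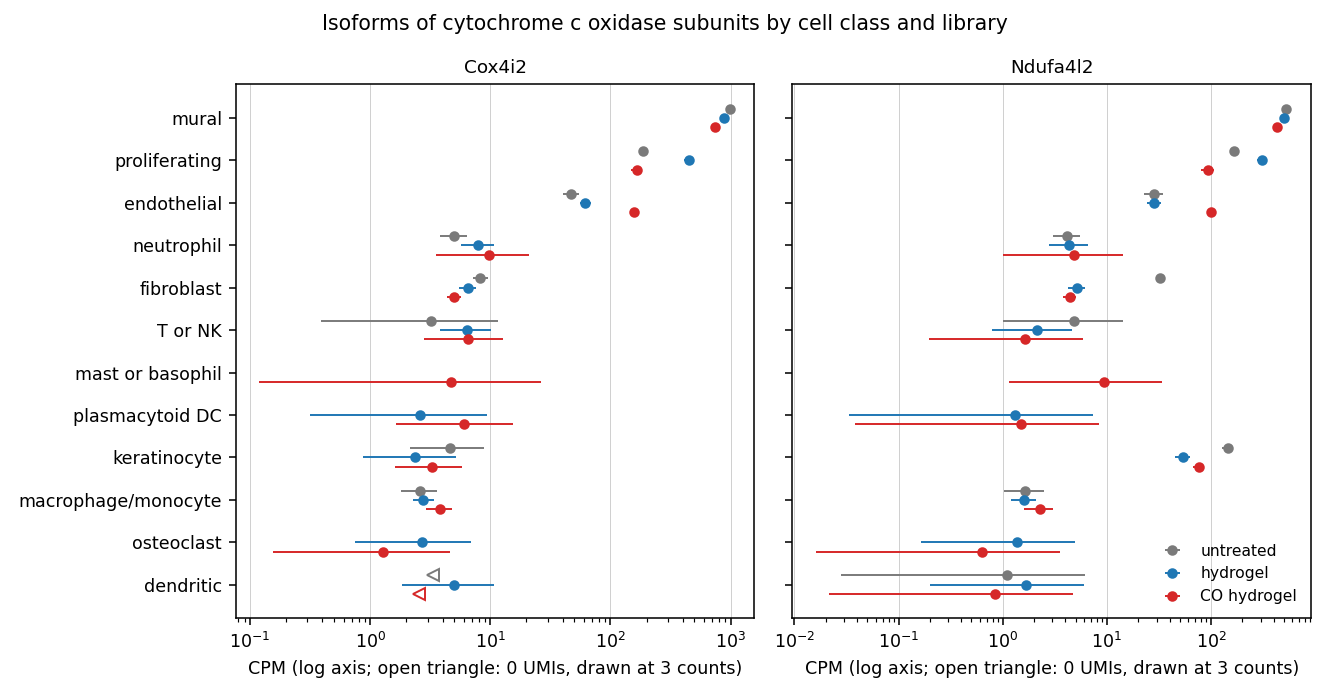
CPM (log axis) of isoforms of cytochrome c oxidase subunits in each cell class, 1 point per library with the exact 95% Poisson interval (counting error only); an open triangle marks 0 UMIs, drawn at 3 counts. Mural-like cells lie far right for Cox4i2 and Ndufa4l2, and the untreated fibroblast-like point for Ndufa4l2 stands apart from both gels.

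In endothelial-like cells both isoforms were higher in the CO hydrogel than in either other library. Cox4i2 had 47.3, 61.9 and 158 CPM (165, 391 and 1567 UMIs), a log2 ratio of CO hydrogel to hydrogel of 1.36 (interval 1.20 to 1.52), and took 4.44%, 6.49% and 14.5% of the Cox4i1 and Cox4i2 UMIs. Ndufa4l2 had 28.1, 28.3 and 100 CPM (98, 179 and 991 UMIs), a ratio of 1.82 (1.59 to 2.06), and took 3.72%, 4.54% and 17.0% of its pair. After thinning, a Cox4i2 UMI was found in 1.90%, 4.29% and 8.32% of the cells and a Ndufa4l2 UMI in 2.38%, 1.07% and 6.14%. Markers of other classes were also highest in the CO hydrogel cells of this class. The summed mural markers were 668, 787 and 1285 CPM and the summed fibroblast markers 1278, 986 and 5649 CPM. Cluster 26, found in the CO hydrogel library alone (162 cells, 15.9% of the class), held 31978 CPM of fibroblast markers and 1262 CPM of endothelial markers. In cluster 12 alone, the values were 47.3, 61.9 and 163 CPM for Cox4i2 and 28.1, 28.3 and 103 CPM for Ndufa4l2, and the pericyte marker Rgs5 had 53.1, 52.2 and 132 CPM, with summed mural markers of 668, 787 and 1213 CPM (none at 0). The part of mural RNA or cells in these values was not tested. Of the listed hypoxia-induced genes 9 were measured in endothelial-like cells. Between the gels 0 of them were higher and 1 lower (median 0.04, all genes 6.75% and 3.74%).

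**Figure D5:**
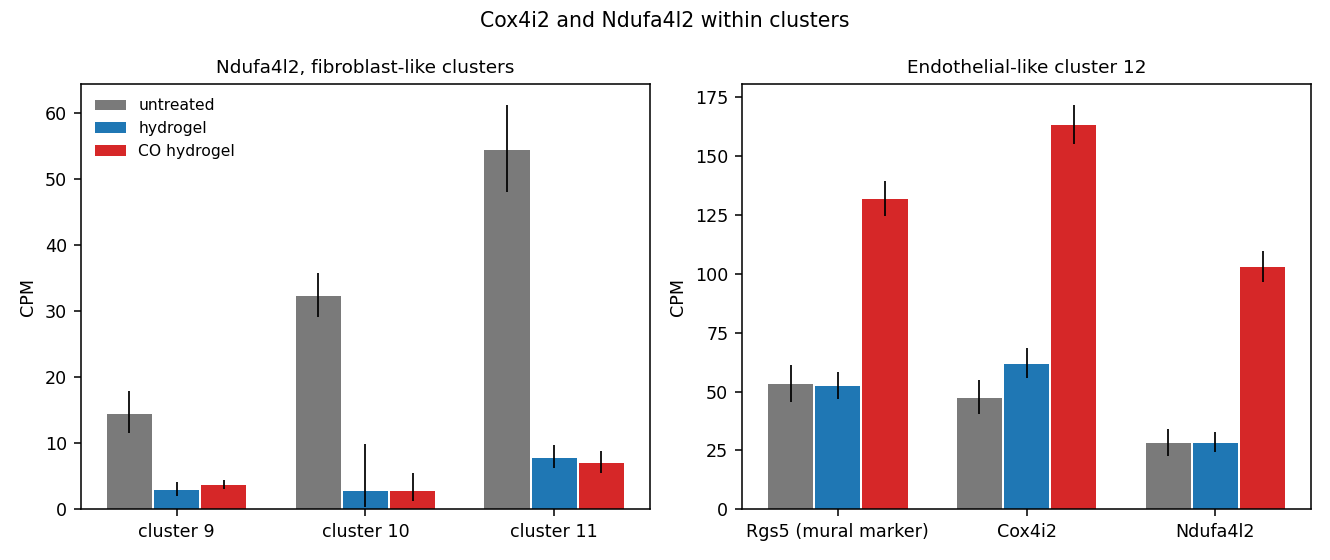
CPM of Ndufa4l2 in the 3 fibroblast-like clusters (left) and of Rgs5, Cox4i2 and Ndufa4l2 in endothelial-like cluster 12 (right), bars by library with exact 95% Poisson intervals (counting error only). The untreated bar is the tallest in each fibroblast-like cluster, and in cluster 12 all 3 genes are highest in the CO hydrogel library.

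Cox6b2, known as the testis form of the Cox6b subunit, was the nuclear-coded subunit with the widest ratios in fibroblast-like cells, where the isoform Ndufa4l2 had wider ones against untreated and Cox4i2 a wider one in CO hydrogel to untreated (-0.73). It had 10.1, 23.4 and 15.6 CPM (220, 547 and 729 UMIs), with log2 ratios of 1.22 for hydrogel to untreated, 0.64 for CO hydrogel to untreated and -0.59 for CO hydrogel to hydrogel. Cluster 11 carried most of it, with 39.7, 47.2 and 56.5 CPM, and that cluster made up 23.2%, 42.7% and 19.9% of the class, so within it the hydrogel did not stand highest. Mural-like cells had more, 57.8, 63.1 and 69.8 CPM, or 18.6%, 23.3% and 25.5% of the Cox6b1 and Cox6b2 UMIs. In endothelial-like cells Cox6b2 had 4.88, 2.53 and 8.60 CPM, from 17, 16 and 85 UMIs.

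The forms typical of heart and skeletal muscle, Cox6a2 and Cox8b, were seen almost in the CO hydrogel library alone. Cox6a2 had 22, 28 and 290 UMIs in all kept cells and Cox8b 0, 0 and 93. Of the CO hydrogel UMIs 248 and 78 lay in cluster 13, an unnamed cluster, where summed skeletal muscle markers were 135, 75.1 and 1230 CPM. Few cells carried them: 137 of the 290 Cox6a2 UMIs came from 3 cells, and 1 cell had 62. Cox7a1, the third muscle form, had 8, 27 and 39 UMIs.

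Genes around the chain were counted in fibroblast-like cells by list, beside 5.5% of all genes higher and 4.87% lower past the fold between the gels. At those shares a list of this size holds few genes past the fold, so a count of 0 sets no list apart. Between the gels 0 of 15 genes for complex IV assembly and copper delivery passed the fold (median 0.06), from Cox15, which makes heme A (-0.39), to Cox20 (0.31). Of 16 electron carriers and their enzymes 1 was higher and 0 lower (median 0.02), and the higher one was Sqor, the sulfide oxidase, with 1.11 and 2.77 CPM. None of 15 TCA cycle genes (median -0.02), 16 genes of mitochondrial biogenesis (-0.02) or 12 assembly and supercomplex factors (0.06) passed the fold in either direction. The list of assembly and supercomplex factors includes Cox7a2l, which was also counted among the complex IV members. Of 8 antioxidant and uncoupling genes 2 were lower (median -0.23). They were Prdx5, a peroxiredoxin, with 712, 570 and 284 CPM, and Sod2, the mitochondrial superoxide dismutase, with 2046 CPM in untreated, 1531 in hydrogel and 843 in CO hydrogel cells. Against untreated (all genes 15.4% higher and 5.46% lower in the CO hydrogel, 14% and 5.18% in the hydrogel), 0 of 15 complex IV assembly genes passed in the CO hydrogel (median -0.01) and 1 was higher in the hydrogel (0.06), and the TCA list had medians of 0.01 and 0.02 with 0 of 15 past the fold in each. Of the electron carriers 3 of 16 were higher in the CO hydrogel (median 0.11) and 2 of 14 in the hydrogel (0.10). Coq10b, a coenzyme Q binding protein, was higher in both, with 79.8, 133 and 120 CPM. Of the antioxidant and uncoupling genes 1 was higher and 2 lower of 8 in the CO hydrogel, and 1 higher and 0 lower in the hydrogel. The lower ones were Prdx5 and Sod2, and the higher one was Ucp2, an uncoupling protein, with 18.0, 38.8 and 32.6 CPM. Of the assembly and supercomplex factors 1 of 12 was higher in the CO hydrogel, Tmem70, which helps to assemble the ATP synthase (6.12 to 10.1 CPM), and 0 of 12 in the hydrogel. Mitochondrial biogenesis genes had 0 of 15 past the fold in each.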

How the data were processed

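The deposited matrices hold raw UMI counts, 1 number for each gene and barcode, made by the authors with Cell Ranger (6.0.1 per the file headers, 7.0.0 per the submitters' processing notes, which also name Seurat 4.2.0, DESeq 1.38.0 and rn6). Barcodes under 500 UMIs or 300 genes, or with over 20% of UMIs from mitochondrial genes, were left out. The highest Scrublet scores were removed at 0.8% per 1000 barcodes, and Scrublet's own cutoff marked 0 untreated barcodes. Leiden clustering (2000 variable genes, 30 components, 20 neighbours, resolution 1) used the libraries jointly, and clusters took a class name from markers. A score of at least 0.2, with 3 markers each seen in 20% of the cells, was needed. UMIs of a class were summed per library, and CPM is UMIs per 1000000 UMIs of that class. Ratios required 100 UMIs over both libraries and 100 cells in each, and levels required 50 cells. Intervals (95%, exact Poisson, binomial or conditional binomial) cover counting error only, and UMIs of 1 cell are not independent. The ratio procedure was tested on simulated data.

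The members, gene lists and markers were chosen with earlier results of these data known. Members named are the isoform pairs, the highest and lowest of each complex in the ratio of CO hydrogel to hydrogel, and the 10 highest and 10 lowest past 1.5-fold. Alternatives changed the cell filter, doublets, clustering, scaling (TMM), denominator, cell weighting, minimum count, fold and cluster mix. Leaving out barcodes found in more than 1 library, and members out of clustering for the isoforms, were added after seeing the data. Clustering ran in scanpy 1.11.5 with igraph 0.11.9, sums and intervals in Python 3.11.15 with pandas 2.3.3, numpy 2.4.6 and scipy 1.17.1, figures in matplotlib 3.10.9, and TMM factors alone in edgeR 4.0.16 under R 4.3.3.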

Additional observations from a re-analysis of the deposited data

How the results depend on the processing

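Each group is 1 library, so no library could be left out, and no difference between libraries has a replicate check. No paired analysis was possible because there is 1 library per group. Of the classes compared, the fewest UMIs stood behind CO hydrogel neutrophil-like (618104), untreated T or NK-like (621135) and CO hydrogel plasmacytoid dendritic-like cells (663283). Of 532 recomputed medians 474 stayed within the 95% order-statistic interval of the median over members, 53 moved out of it and 5 turned, meaning that the sign changed where that interval did not include 0. Counting medians near 0 too, 36 changed sign. Those named here are medians of log2 ratios of the nuclear-coded (first) or mitochondrially coded subunits (second), and the cause of each shift was not tested beyond what the setting itself changes. Settings that left a class under 100 cells gave no value there. Another denominator, resolution 2, members left out of clustering, 0.5 counts added and leaving out shared barcodes moved none out of its interval.

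TMM factors gave, for the nuclear-coded subunits in CO hydrogel to hydrogel, -0.15 (T or NK-like), 0.043 (dendritic-like), 0.031 (endothelial-like), -0.10 (keratinocyte-like), 0.043 (neutrophil-like) and -0.042 (plasmacytoid dendritic-like). In CO hydrogel to untreated they gave -0.20 (fibroblast-like), -0.033 (macrophage or monocyte-like, turned from 0.13), -0.18 (mural-like) and 0.23 (neutrophil-like). In hydrogel to untreated they gave -0.15 (T or NK-like), -0.34 (endothelial-like), -0.23 (fibroblast-like), 0.051 (keratinocyte-like), 0.14 (macrophage or monocyte-like), -0.21 (mural-like) and 0.30 (neutrophil-like). For the mitochondrially coded subunits they gave -0.17 and -0.39 in fibroblast-like cells (CO hydrogel and hydrogel to untreated), -0.022 in macrophage or monocyte-like (turned from 0.14) and -0.093 in mural-like cells (CO hydrogel to untreated), and 0.12, 0.13 and 0.19 in neutrophil-like cells (CO hydrogel to hydrogel, CO hydrogel to untreated, hydrogel to untreated).

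The same cluster mix gave, for the nuclear-coded subunits, 0.19, 0.035 and -0.13 in fibroblast-like cells (pairs in the order just given), 0.054 (turned), 0.047 and -0.013 (turned) in macrophage or monocyte-like and 0.16, 0.51 and 0.48 in neutrophil-like cells, 0.070 in T or NK-like cells (hydrogel to untreated) and -0.11 in mural-like cells (CO hydrogel to untreated). For the mitochondrially coded it gave 0.28 and -0.36 in fibroblast-like cells (CO hydrogel to hydrogel, hydrogel to untreated) and 0.042 in macrophage or monocyte-like cells (CO hydrogel to untreated).

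The mean of per-cell CPM gave -0.16 and -0.084 in T or NK-like cells (CO hydrogel to hydrogel, hydrogel to untreated), -0.10 in dendritic-like, -0.12 in keratinocyte-like and 0.049 in mural-like cells (CO hydrogel to hydrogel), and -0.11 and 0.25 in macrophage or monocyte-like cells (CO hydrogel to hydrogel, hydrogel to untreated). For the mitochondrially coded it gave -0.044 in T or NK-like cells (CO hydrogel to untreated) and 0.44 and 0.41 in keratinocyte-like cells (CO hydrogel to hydrogel, to untreated). Clustering each library by itself gave 0.033 and 0.027 in fibroblast-like cells (CO hydrogel to untreated; hydrogel to untreated, turned from -0.07), -0.15 in mural-like cells (hydrogel to untreated) and, mitochondrially coded, 0.49 in neutrophil-like cells (CO hydrogel to hydrogel). Without doublet removal the nuclear-coded medians of CO hydrogel to hydrogel were -0.19 in T or NK-like and 0.0032 in keratinocyte-like cells, and that of CO hydrogel to untreated was -0.0011 in keratinocyte-like cells. With no limit on mitochondrial UMIs the macrophage or monocyte-like mitochondrially coded median was 0.064 (CO hydrogel to untreated). The stricter cell filter gave 0.62 for the mitochondrially coded in neutrophil-like and 0.041 for the nuclear-coded in endothelial-like cells (CO hydrogel to hydrogel).

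Counts past 1.5-fold depended on scaling and on the minimum most in neutrophil-like cells, where 57 higher in CO hydrogel to untreated became 14 with TMM and 21 at 500 UMIs, 60 in hydrogel to untreated became 6 and 35, and 8 in CO hydrogel to hydrogel became 1 and 0. In T or NK-like cells 6 lower in CO hydrogel to hydrogel became 0 at 2-fold, 2 with TMM and 3 at 500 UMIs, and 7 in CO hydrogel to untreated became 2 at 2-fold and 2 at 500 UMIs. In macrophage or monocyte-like cells 3 higher in hydrogel to untreated became 0 at 2-fold and 1 with TMM, and in endothelial-like cells 2 lower in CO hydrogel to untreated became 0 and 5. Other counts of past-fold subunits were 0 to 3 under every setting tried. For Cox4i2 and Ndufa4l2, endothelial-like hydrogel values without doublet removal were 84.5 and 39.6 CPM, still under the CO hydrogel values.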
